A study of Mus musculus with 2 samples.

Results

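The genes described here encode the subunits and helpers of the proteasome, chosen as the protein-coding mouse genes whose symbol is Psma to Psmg followed by a number, without Psmb8, Psmb9 and Psmb10. This gave 45 genes of the 20568 protein-coding genes with a known strand on chromosomes with peaks. ELF1, an ETS family transcription factor, was mapped by ChIP-seq in CH12.LX, a female mouse B-cell lymphoma line of strain B10.H-2aH-4bp/Wts kept in culture, with age unknown and no treatment in the labels. Both biological replicates form 1 group, so there is no second condition. A peak is a place where DNA fragments brought down by the antibody pile up, and its summit is the highest point. The lists measure binding and not expression, so the line was not checked against marker genes here, and read depth is unknown from them.

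The proteasome is the protease complex that degrades ubiquitin-tagged proteins in the cytosol and nucleus. Its 20S core is a barrel whose outer rings are built of alpha subunits (Psma genes) and whose inner rings are built of beta subunits (Psmb genes), of which Psmb5, Psmb6 and Psmb7 carry the proteolytic sites. The 19S cap (Psmc and most Psmd genes) binds ubiquitin chains, removes them, and unfolds the substrate with a ring of ATPases. Psmg1 to Psmg4 act as chaperones of core assembly, and Psmd5, Psmd9 and Psmd10 act as chaperones of the base of the cap. Psme1 to Psme4 are alternative activators of the core, and Psmf1 is an inhibitor of it. Psma8 replaces an alpha subunit in the testis, and Psmb11 replaces Psmb5 in cortical thymic epithelium. ETS factors bind DNA around a GGAA core.

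The sequences printed here are the bases within 50 bp of the mm9 summit of the strongest core, cap and assembly genes whose promoter is in the RefSeq table, read from the mm9 genome (NCBIM37). They are shown because they lie under some of the highest ELF1 signals at proteasome genes. Capitals mark CGGAA on either strand, the ETS core GGAA with a preceding C, which reads TTCCG on the printed strand where the site is reversed. This word was chosen after the first values were seen. Psmb3 lies at chr11:97564531-97564631, Psma6 at chr12:56499661-56499761, Psmc2 at chr5:21290976-21291076, Psmd2 at chr16:20651656-20651756 and Psmd9 at chr5:123678166-123678266, all on the plus strand. Psmd10 lies at chrX:137491329-137491429 on the minus strand.
Psmb3: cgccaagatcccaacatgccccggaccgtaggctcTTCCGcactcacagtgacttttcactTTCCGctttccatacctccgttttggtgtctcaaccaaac
Psma6: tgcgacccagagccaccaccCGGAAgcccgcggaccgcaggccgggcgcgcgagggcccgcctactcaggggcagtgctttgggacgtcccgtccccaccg
Psmc2: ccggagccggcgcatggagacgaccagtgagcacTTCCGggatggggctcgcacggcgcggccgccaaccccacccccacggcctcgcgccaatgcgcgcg
Psmd2: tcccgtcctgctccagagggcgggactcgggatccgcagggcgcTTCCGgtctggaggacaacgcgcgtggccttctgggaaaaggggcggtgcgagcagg
Psmd9: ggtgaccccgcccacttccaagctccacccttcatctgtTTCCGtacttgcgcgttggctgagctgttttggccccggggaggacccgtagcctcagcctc
Psmd10: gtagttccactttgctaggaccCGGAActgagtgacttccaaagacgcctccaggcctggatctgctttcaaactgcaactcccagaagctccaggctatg
Each of the 6 holds CGGAA at least once, and Psmb3 holds it 2 times. The longer word CCGGAA is present in Psma6, Psmc2, Psmd2 and Psmd10 and absent from the windows of Psmb3 and Psmd9. Psmd3, the cap gene with the highest mm9 signal (755.1, against 753.2 at Psmc2), was left out because its promoter is not in the RefSeq table. Its window held neither CGGAA nor CCGGAA, so the 6 do not stand for all of the strongest genes. Both words are common at mm9 promoter peaks in general. Within 50 bp of the summit, CGGAA lay at 62.1% and CCGGAA at 40.3% of all promoter peaks.

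Most proteasome genes had an ELF1 peak at the promoter. Of the 45 genes, 39 (86.7%, 95% exact interval 73.2% to 94.9%) had a summit of the optimal mm10 list within 1 kb of the annotated RefSeq 5′ end, against 40.3% of all 20568 genes. The 6 genes without such a peak were Psma6, Psmd1, Psmg2, Psmf1, Psma8 and Psmb11. On the older mm9 list, with all GENCODE M1 start sites of each gene, 42 of 45 (93.3%) were bound, against 36.9% of all genes, and the 3 left unbound were Psmd1, Psma8 and Psmb11. These counts are given as a description, since the genes were chosen with earlier results of these data known. The interval treats the genes as independent draws and covers counting error only. They are in fact the whole set under the symbol rule, read from the same peak list, so the interval is only a rough guide. In the optimal list, the 39 bound genes had a median peak signal of 223, against 97.4 for all 8296 bound genes. The scale of the signal is not given, so signals are compared only within a list. The strongest 10% of the optimal list held the peak of 24 of the 39 genes (61.5%), against 29.9% of all bound genes. All 39 summits had a peak of the conservative list within 100 bp, against 92.8% of all bound genes. That list by itself put a peak at 39.7% of all genes.

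**Figure D1:**
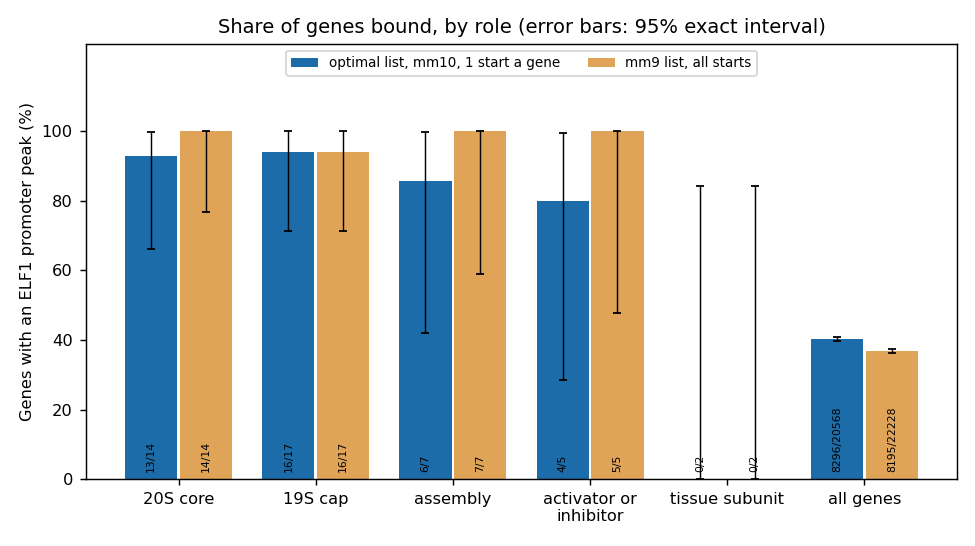
Share of genes with an ELF1 promoter peak (y axis, %) by role and in all genes (x axis), for the optimal mm10 list with 1 start per gene and the mm9 list with all starts. Numbers in the bars are genes bound and genes counted. Error bars are 95% exact binomial intervals that treat genes as independent draws. Core, cap, assembly and activator groups lie between 80% and 100%, the tissue subunits at 0 of 2, and all genes at 40.3% and 36.9%.

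In the 20S core, 13 of 14 genes were bound in the optimal list (median signal 235) and 14 of 14 in the mm9 list. Psmb3, a beta ring subunit, had the strongest peak of all proteasome genes, with a signal of 479 in the optimal list, 220.0 in replicate 1 and 260.1 in replicate 2. Psmb3 ranked 132nd of 29086 optimal peaks. Psma3, an alpha ring subunit whose start site is treated below, followed with 316 in the optimal list, 151 in replicate 1 and 167 in replicate 2. Psma2, also of the alpha ring, had 297 in the optimal list, 119 in replicate 1 and 171 in replicate 2. Its peak, 61 bp upstream of the 5′ end, also lay within 1 kb of the 5′ end of Mrpl32, a mitochondrial ribosomal protein gene. Psmb1 had 262, 113 and 146 in these lists, and Psma5 had 258, 120.1 and 138. Psmb2 (235) and Psma4 (223) followed, and signals were lower at Psma1 (125.4), where the summit lay 23 bp downstream of the 5′ end, Psma7 (103), Psmb4 (98.2) and Psmb7 (89.5).

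The genes for the proteolytic subunits differed widely in signal. Psmb6, the caspase-like subunit, had 239 in the optimal list, 94.4 in replicate 1 and 149.5 in replicate 2. Psmb7, the trypsin-like subunit, had 89.5, 44.2 and 44.4. Psmb5, the chymotrypsin-like subunit, had the weakest peak of the 39 genes, 31.1 in the optimal list and 17.3 in replicate 1. Replicate 2 had no entry within 100 bp of the Psmb5 summit. Its entries nearest to the 5′ end had signals of 13.65 at 77 bp upstream and 13.35 at 198 bp downstream, while the optimal summit lay 73 bp downstream. The Psmb5 peak was in the weaker part of the optimal list, at rank 18424 of 29086. The immunoproteasome genes, whose products replace these subunits in immune cells, were all bound. Psmb8, the counterpart of Psmb5, had a signal of 102, Psmb9, the counterpart of Psmb6, had 22.6, and Psmb10, the counterpart of Psmb7, had 45.6. The order among the proteolytic pairs was thus mixed, with the signal of Psmb5 below that of Psmb8 and the signals of Psmb6 and Psmb7 above those of Psmb9 and Psmb10. Psmb8 had 47.0 in replicate 1 and 56.9 in replicate 2, and Psmb10 had 23.4 and 24.2. Each pair kept this order in both replicates, but for Psmb5 in replicate 2 this rests on entries more than 100 bp from its optimal summit. The order was not compared in the mm9 list. The Psmb9 peak had signals of 3.65 in replicate 1 and 20.9 in replicate 2 and also lay at Tap1, the peptide transporter gene that starts head to head with it.

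The 19S cap gave 16 bound genes of 17 in both lists, with a median signal of 225 in the optimal list. All 6 ATPase genes were bound. Psmc2 had the strongest cap signal, 373 in the optimal list, 162 in replicate 1 and 215 in replicate 2, and its peak was shared with Dnajc2, a ribosome-associated chaperone gene. Psmc5 (256), Psmc4 (229.5), Psmc3 (169.5) and Psmc1 (164) lay between, and Psmc6 had the lowest ATPase signal, 53.3, with 25.8 in replicate 1 and 25.9 in replicate 2. Of the 11 non-ATPase genes 10 were bound. Psmd2, a scaffold of the base, had 344, 167 and 177 in the optimal list, replicate 1 and replicate 2. Psmd3, a lid subunit, had 322, 141 and 178. Psmd13, another lid subunit, had 311, 138 and 171, and its summit lay 8 bp upstream of its 5′ end and within 1 kb of that of Sirt3, a mitochondrial deacetylase gene. Psmd11 (250.1), Psmd14, the deubiquitinase of the lid (244), Psmd4, a ubiquitin receptor (221), Psmd12 (191.5), Psmd7 (174) and Psmd8 (161.5) followed. Psmd6 had 57.9. Psmc6 and Psmd6 stood apart from the other 14 bound cap genes, whose signals were 161.5 or more.

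Of the 7 assembly chaperone genes, 6 were bound in the optimal list and 7 in the mm9 list. Psmd9, a chaperone of the base, had the second strongest peak of all proteasome genes, 402 in the optimal list, 180.5 in replicate 1 and 221 in replicate 2, with the summit 20 bp downstream of the 5′ end. Psmg1 had 283, 124 and 158, and Psmd10, also known as gankyrin, had 277, 126 and 152. Psmg3 had 202, 96.9 and 105.5. Psmd5 had 88.8, 22.35 and 67.7, the largest ratio between replicates among these genes, and Psmg4 had 86.0, 45.7 and 40.3. The medians of the core, cap and assembly groups lay close together, 235, 225 and 240, while signals within the core ran over the range 31.1 to 479. No difference between these groups was tested. Among the activators, Psme2 had 260.4 in the optimal list, 107 in replicate 1 and 154 in replicate 2. Psme4 had 155, 68.8 and 88.6, Psme3 had 137, 68.1 and 66.7, and Psme1 had 128, 55.8 and 70.7. The strongest 10% of the list held 1 of these 4 peaks, that of Psme2, which lay nearer to the 5′ end of Rnf31 than to its own.

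**Figure D2:**
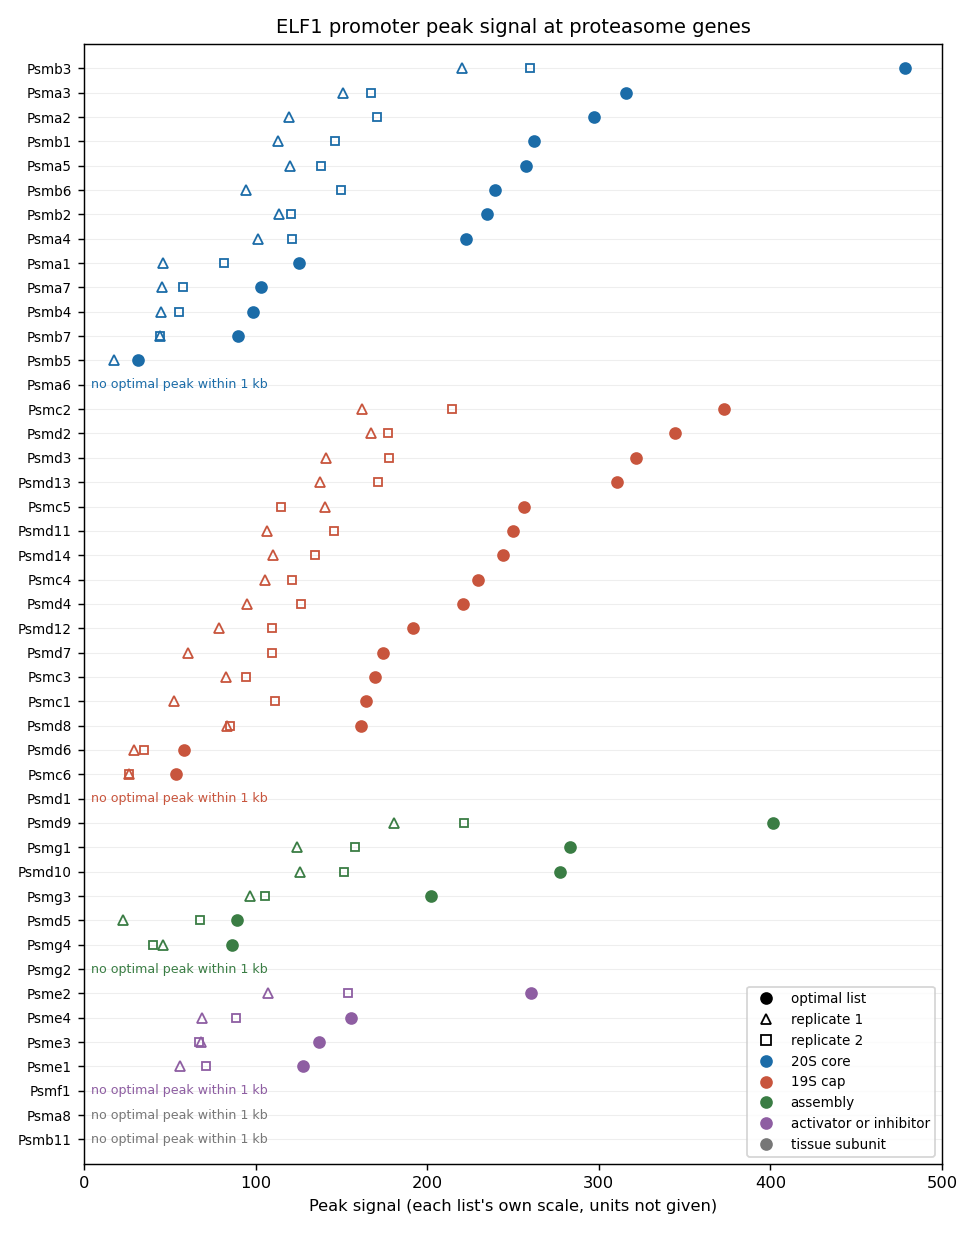
Peak signal (x axis, on each list's own scale) of the strongest promoter peak of each proteasome gene (y axis, grouped by role and ordered by signal). Filled circles are the optimal list, triangles replicate 1 and squares replicate 2. Psmb3 is highest at 479 and Psmb5 lowest at 31.1 in the optimal list, and 6 genes have no optimal peak within 1 kb.

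The replicates were compared at these peaks through their own relaxed lists, which hold peaks and background alike. The optimal list was itself made from the relaxed lists, so a high share of matching entries was largely built in. Of the 39 bound genes, 38 (97.4%) had an entry within 100 bp of the optimal summit in both replicates, against 93.5% of all bound genes, and Psmb5 was the exception. Replicate 2 gave the higher signal at 35 of these 38 genes and replicate 1 at Psmc5, Psme3 and Psmg4. The ratio of replicate 2 to replicate 1 had a median of 1.24, with 0.818 the lowest (Psmc5) and 3.03 the highest (Psmd5). The median over all bound genes was 1.28, and the scales of the lists can differ.

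Binding was close to the start site at most of these genes. The median distance from summit to 5′ end was 57 bp, against 84 bp for all bound genes, and 27 of 39 genes (69.2%) had the summit within 100 bp, against 54.3%. The summit lay upstream at 30 genes (76.9%), against 53.9% of all bound genes. Several summits farther out were shared with another start. At Psme2 the strongest peak lay 575 bp upstream of its 5′ end and 37 bp from that of Rnf31, a ubiquitin ligase subunit gene, while the peak 30 bp downstream of the Psme2 5′ end had a signal of 28.8, against 260.4. At Psmc5 the peak of 256 lay 333 bp upstream and that of 70.1 lay 117 bp upstream, both shared with Ftsj3, a ribosome biogenesis gene. At Psma7 the peak of 103 lay 601 bp downstream and 620 bp from the 5′ end of Ss18l1, and a peak of 22.4 lay 55 bp upstream and 36 bp from that of Ss18l1. Psmb3 had a second peak of 364 at 950 bp upstream, 50 bp from the 5′ end of Pcgf2, a Polycomb group gene. In all, 8 of the 39 peaks (20.5%) also lay within 1 kb of another protein-coding 5′ end, against 22.7% of all bound genes. These were the peaks of Psma2, Psma4, Psma7, Psmb3, Psmc2, Psmc5, Psmd13 and Psme2. The list depends on the starts used. With all GENCODE starts on the mm9 list, the Psmd10 peak also lay within 1 kb of a start of Atg4a, and the Psmb3 peak was not shared. Likewise 9 genes (23.1%) had 2 or more peaks within 1 kb, against 23.6%. Sharing and multiple peaks were thus about as frequent here as at other bound genes. A distal peak (2 to 50 kb from the gene, and more than 2 kb clear of every 5′ end in the gene table) was found for 24 of 45 genes (53.3%), against 51.5% of all genes. That of Psmf1, and the strongest of Psma6, lay at another RefSeq start of the gene itself.

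**Figure D3:**
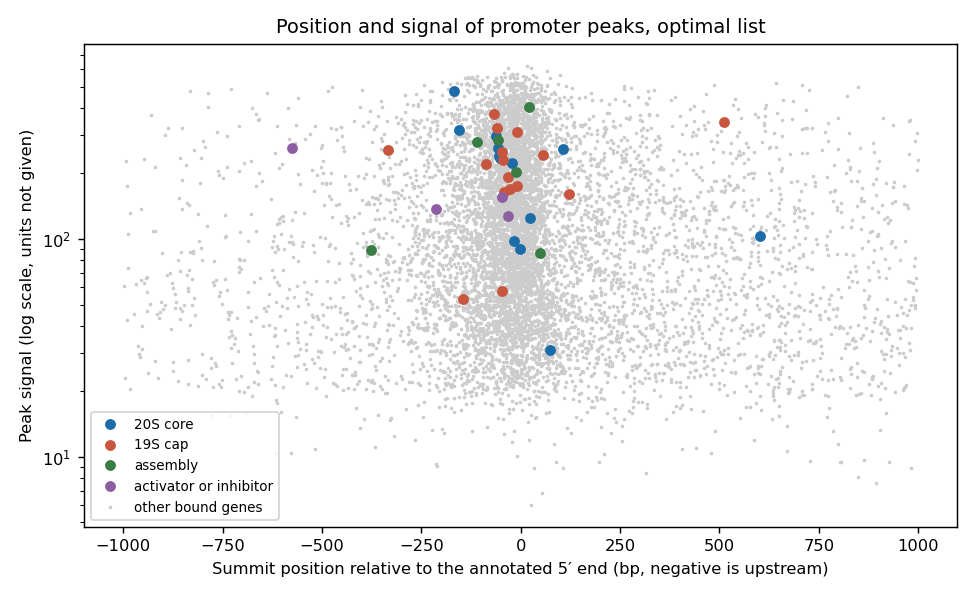
Position of the summit relative to the annotated 5′ end (x axis, bp, negative is upstream) and peak signal (y axis, log scale) of the strongest optimal peak of each bound gene. Coloured points are the 39 bound proteasome genes by role and grey points are other bound genes. Of the coloured points 27 lie within 100 bp of the 5′ end, and the farthest belong to Psma7, Psme2 and Psmd2.

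The choice of start site changed the status of Psma6 and Psmf1, the signal at Psma3 and only the distance at Psmd2. Psma6, an alpha ring gene, had no optimal peak at the RefSeq gene table's 5′ end on chromosome 12 at 55384222. A second RefSeq start 14603 bp downstream had a peak of signal 375 at 55398569 to 55398919, with 157 in replicate 1 and 217 in replicate 2. At the upstream 5′ end the strongest entry of the pooled relaxed list had 8.96. Psmf1 likewise had a peak of 358 at a RefSeq start 2889 bp downstream of the 5′ end used, with 156 in replicate 1 and 203 in replicate 2. Both genes were bound in the mm9 list, with signals of 755 and 661 at 51 and 15 bp from a GENCODE start. Psma3 went the other way. Its optimal peak of 316 lay 154 bp from the gene table's 5′ end, but the start in the RefSeq promoter table lay 5.34 kb downstream, where the peak had a signal of 42.0. The mm9 list had the same arrangement, with 848 at 5464 bp upstream of the GENCODE 5′ end and 51.3 at 37 bp downstream of it. Psmd2 had its summit 511 bp downstream of the gene table's 5′ end and 19 bp upstream of the promoter table's start. With the promoter table's starts added, an alternative chosen after the data were seen, 41 of 45 genes were bound, against 43.7% of all genes. Of the 37 genes with an entry in that table, 34 (91.9%) had a summit within 250 bp of a listed start, against 37.8% of all genes in it, and the 3 without were Psmd1, Psmd5 and Psmb11.

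Of the genes without a peak in the optimal list, Psmg2, a core assembly chaperone gene, lay nearest to having one. The pooled relaxed list held an entry of signal 30.5 at 33 bp upstream of its 5′ end, and replicate 1 one of 21.6 at 31 bp upstream. In replicate 2 the strongest entry, 13.01, lay 230 bp upstream, and another of 8.91 lay 13 bp upstream. The mm9 list called Psmg2 with a signal of 40.9, close to that list's minimum of 36.1, at a start shared with Cep76. Psmd1, the largest subunit of the cap base, was unbound in the optimal, conservative and mm9 lists. Its strongest entry within 1 kb had 9.40 in the pooled relaxed list, 6.83 in replicate 1 and 8.84 in replicate 2, at ranks of 97884, 51531 and 48466 of 300000. The nearest optimal peak was 56.7 kb away.

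No ELF1 entry of any list was found at the testis and thymus subunits. Within 1 kb of the 5′ ends of Psma8 and Psmb11 there was no entry at all in the pooled, replicate 1 or replicate 2 relaxed lists, each of 300000 entries, and none in the mm9 list. Their broadly expressed counterparts Psma7 and Psmb5 had optimal peaks of 103 and 31.1. The Psma7 peak lay 601 bp downstream of the 5′ end, and the peak 55 bp upstream of it had 22.4. The Psmb5 peak had no entry of replicate 2 within 100 bp of its summit. The peak nearest to Psmb11 was that of Psmb5, whose 5′ end lies 7.32 kb away on chromosome 14, and the peak nearest to Psma8 was 23.1 kb away. With 2 genes taken as independent draws, 0 bound allows a share of up to 84.2% (95% exact upper limit), so no rate can be given for tissue subunits. The promoters of Psmb11, Psmd1 and Psmb5 from RefSeq (GRCm38.p6, 250 bases before to 50 after the start) were chosen after values were seen for Psmd1 and Psmb5. They are shown because Psmb11 and Psmd1 had no peak and Psmb5 the weakest in the optimal list. In the mm9 list Psmb5 had a signal of 98.1, at rank 7009 of 18804, above Psmd6 (87.8), Psmc6 (66.6), Psma3 (51.3) and Psmg2 (40.9). Psmb11 lies at chr14:54625060-54625359 and Psmd1 at chr1:86064369-86064668 on the plus strand, and Psmb5 at chr14:54617946-54618245 on the minus strand, with CGGAA in capitals.
Psmb11: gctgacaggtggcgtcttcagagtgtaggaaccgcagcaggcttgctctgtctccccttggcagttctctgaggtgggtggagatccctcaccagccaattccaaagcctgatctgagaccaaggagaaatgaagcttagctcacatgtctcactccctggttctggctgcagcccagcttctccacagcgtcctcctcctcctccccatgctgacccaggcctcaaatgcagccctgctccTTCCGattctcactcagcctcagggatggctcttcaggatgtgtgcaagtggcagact
Psmd1: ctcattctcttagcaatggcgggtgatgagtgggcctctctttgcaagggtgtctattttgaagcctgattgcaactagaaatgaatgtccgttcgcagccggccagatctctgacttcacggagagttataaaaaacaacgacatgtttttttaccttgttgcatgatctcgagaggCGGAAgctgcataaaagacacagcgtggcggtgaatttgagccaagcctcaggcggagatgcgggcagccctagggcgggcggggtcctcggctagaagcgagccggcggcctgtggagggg
Psmb5: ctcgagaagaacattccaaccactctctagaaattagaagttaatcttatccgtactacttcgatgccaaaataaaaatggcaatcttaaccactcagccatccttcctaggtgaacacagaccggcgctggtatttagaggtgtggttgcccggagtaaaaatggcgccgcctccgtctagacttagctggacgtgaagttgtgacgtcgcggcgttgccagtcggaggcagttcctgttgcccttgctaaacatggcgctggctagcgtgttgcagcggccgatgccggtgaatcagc
CGGAA occurred once in the promoters of unbound Psmb11 and Psmd1 and not in that of Psmb5, and none of these promoters held CCGGAA.

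CpG content was high at most proteasome promoters. The ratio of observed to expected CpG within 500 bp of the start, taken at the start where it is highest, had a median of 0.754 on mm9, against 0.604 for all genes. Of the 39 proteasome genes with a ratio of at least 0.6, 38 were bound in the mm9 list, against 61.1% of all such genes, and the exception was Psmd1 (0.683). Of the 6 with a lower ratio, 4 were bound, against 12.4% of all such genes. These 4 were Psmd10 (0.425), Psme1 (0.46), Psme2 (0.459) and Psmg4 (0.595), and the unbound ones were Psma8 (0.587) and Psmb11 (0.393). Both unbound tissue subunits thus had a ratio under 0.6. Whether CpG content has a part in the counts was not tested.

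ETS words were common in these promoters. Words were sought on both strands. The word CCGGAAGT contains the 6-letter word, CGGAA and the bare core, so their counts overlap. In the RefSeq promoter table, 37 of the 45 proteasome genes had an entry, and the others were Psma8, Psmb1, Psmb2, Psmb7, Psmc3, Psmd3, Psmd7 and Psmg2. CCGGAA was in the promoter of 20 of them (54.1%), against 38.5% of bound genes and 21.5% of all protein-coding genes in the table. CCGGAAGT was in 9 (24.3%), against 12.1% of bound genes and 5.92% of all. CGGAA was in 33 (89.2%), against 62.8% of bound genes and 39.9% of all, and the bare core GGAA in all 37, against 97.1% and 96.3%. AGGAAG, an ETS word that CCGGAAGT does not contain, was in 16 (43.2%), against 37% of bound genes and 37.4% of all. In 18 of the 20 genes with CCGGAA, a site lay in the interval of 100 bp before to 50 bp after the start, against 73.9% of all genes that hold the word. At Psmd13, for example, the site was centred 3 bp before the start, at Psmc1 24 bp before it and at Psmg3 7 bp after it. The antioxidant-type element TGACNNNGC, the kind of site bound by NFE2L1, a known activator of proteasome genes, was in 6 of 37 promoters (16.2%), against 16.9% of bound genes and 15% of all. The palindrome bound by nuclear respiratory factor NRF1 was in 7 (18.9%), against 13.9% and 7.49%, and the YY1-type word AAGATGG in 7 (18.9%), against 9.51% and 7.28%. GGGCGG was in 22 (59.5%), against 70.4% and 51.1%, CCAAT in 13 (35.1%), against 43.6% and 42.5%, and TATAAA in 3 (8.11%), against 7.63% and 14.6%. A match describes letters in the window and does not show that a factor binds there.

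**Figure D4:**
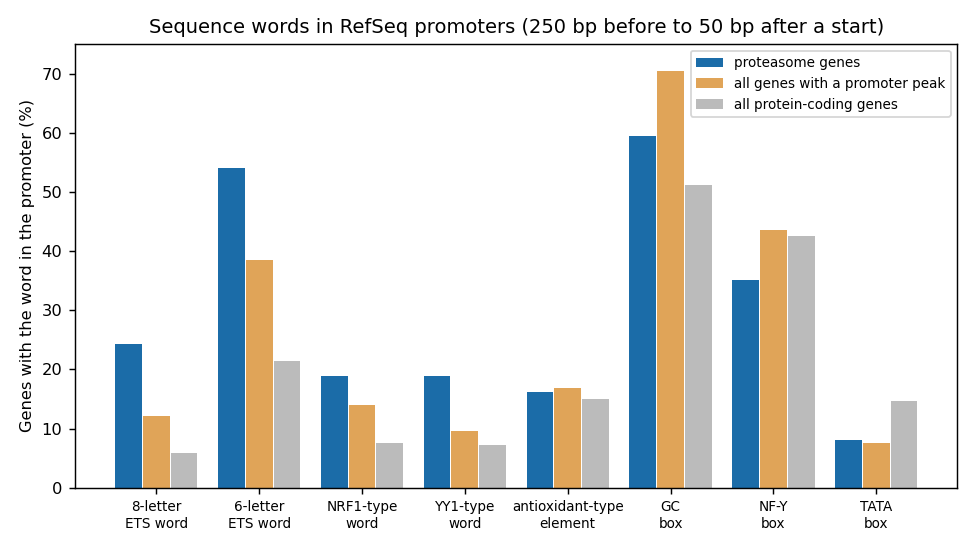
Share of genes (y axis, %) whose RefSeq promoter holds each sequence word on either strand (x axis), for 37 proteasome genes, 6764 genes with an optimal promoter peak and 16524 protein-coding genes. The bars for the 6-letter ETS word stand at 54.1%, 38.5% and 21.5%, and those for the antioxidant-type element at 16.2%, 16.9% and 15%.

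At the mm9 summits, where sequence and peaks share a build, CCGGAA lay within 50 bp at 22 of the 42 bound proteasome genes (52.4%), against 40.3% of all 7270 promoter peaks. In equally long flanking windows, 500 bp from the summit, the shares were 2.38% for proteasome genes and 3.08% for all promoter peaks. CGGAA lay within 50 bp of the summit at 32 of 42 genes (76.2%), against 62.1% of all promoter peaks, and GGAA at 41 of 42 (97.6%), against 91.2%. The gene without any GGAA there was Psmg2. CCGGAAGT was found at 9 (21.4%), against 13.1%, and AGGAAG, also chosen after values were seen, at 10 (23.8%), against 26.9%. TGACNNNGC lay at 4 summits (9.52%), against 5.38%, namely Psmb2, Psmb5, Psmd9 and Psme4. The NRF1 palindrome lay at 1 (Psma4), against 5.52%, AAGATGG at 1 (Psmd7), against 2.74%, and TATAAA at none, against 1.24%. GGGCGG lay at 13 (31%), against 37.3%, and CCAAT at 7 (16.7%), against 17.1%. The site was nearest to the summit at Psmd2 (3 bp), Psme4 (4 bp) and Psmf1 (7 bp). Signal did not follow the number of exact CCGGAA words among proteasome genes. The 20 genes without the word had a median mm9 signal of 367, among them Psmb3 (1214), Psmd3 (755) and Psmd9 (740). The 17 genes with 1 word had a median of 329, and the 5 with 2 words or more (8.56% of all promoter peaks had as many), Psma7, Psmb7, Psmd4, Psmd11 and Psme4, had 222.5. Over all promoter peaks the medians went up with the number of words, 93.4 with none, 212 with 1 and 310.2 with 2 or more. No test was made of the difference between the patterns, and the group of 5 is small.

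**Figure D5:**
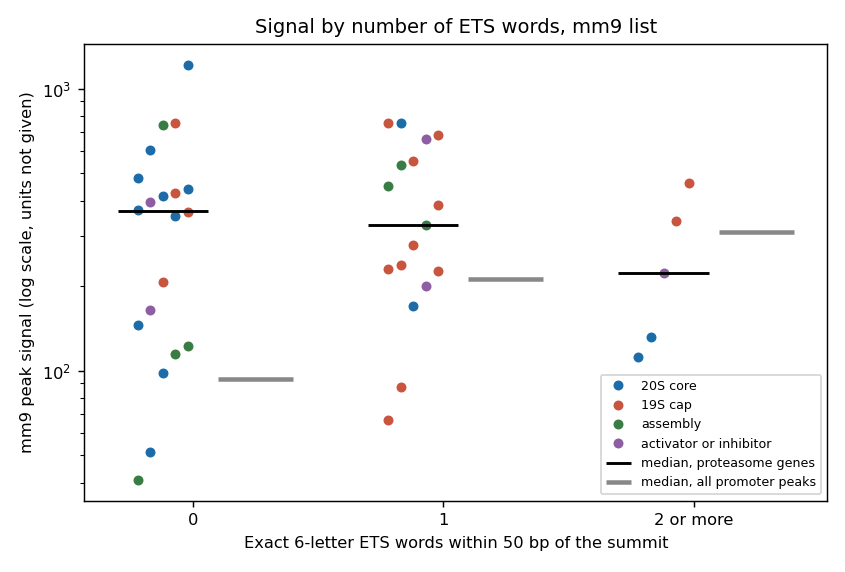
mm9 peak signal (y axis, log scale) of the 42 bound proteasome genes by the number of exact 6-letter ETS words within 50 bp of the summit (x axis), coloured by role. Black lines are medians of proteasome genes (367, 329 and 222.5) and grey lines are medians of all promoter peaks (93.4, 212 and 310.2).

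Most related genes outside the symbol rule had a promoter peak too. Of 43 such genes 39 were bound in the optimal list, against 40.3% of all genes, with a median signal of 109.8, below the 223 of the proteasome genes. Proteasome subunits and bound factors with other symbols gave 10 of 11, led by Akirin2, which is needed for nuclear import of proteasomes (signal 480, 219.8 in replicate 1 and 262 in replicate 2), and by the ligase gene Ube3c (221). The assembly gene Pomp had 212 and the ubiquitin receptor gene Adrm1 172.5, and Ecpas was unbound in the optimal list. Ubiquitin genes, shuttles and activating enzymes gave 12 of 13, led by the activating enzyme gene Uba6 (349), with Ubqln2 unbound. The COP9 signalosome, a complex related in architecture to the lid, gave 9 of 10, led by Cops2 (256) and Cops9 (169), with Cops7a unbound in the optimal list. The transcription factors known to control proteasome genes were listed with Ngly1, the gene of an enzyme that processes NFE2L1. Of these 6 genes, 5 were bound, led by Mafk (399) and Nfe2l1 (73.8), with Mafg unbound. Nfe2l1 had 23.9 in replicate 1 and 48.1 in replicate 2. In the mm9 list 39 of the 43 were bound as well, where Ecpas and Cops7a had a peak and Usp14 and Ngly1 did not. Paaf1 was not analysed here.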

How the data were processed

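The samples are 2 biological replicates of an ELF1 ChIP-seq in CH12.LX, per the labels. The README deposited with each sample says what every list was derived from. A relaxed list was made for each replicate (mm10 alignments, with a control) and for both pooled, the optimal (29086 peaks) and conservative (27399 peaks) lists from these by the irreproducible discovery rate, and the mm9 list (18804 peaks) from both replicates' mm9 alignments. The sources used here do not name an aligner or caller. The deposited peak signal (column 7) has no stated scale. Depth is unknown from these lists.

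For mm10, 1 5′ end per protein-coding gene came from a RefSeq table of GRCm38.p6, with strand looked up by symbol or synonym in GENCODE M1 (20587 of 21900 genes). For all 37 proteasome genes in the RefSeq promoter table, the strands were equal. For mm9, all GENCODE M1 transcript starts and the NCBIM37 sequence were used, with records of 1 symbol on 1 chromosome and strand merged. A gene was bound when a summit lay within 1000 bp of a start. Positions count from 1, each in its own build. Overlaps were computed in Python 3.11.15 with pandas 2.3.3, after a test on planted summits, and intervals are exact binomial (scipy 1.17.1).

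The genes and lists were chosen with earlier results of these data known. Every proteasome gene was to be named with its status, and of each related list the 2 strongest and the unbound genes, of which 1 is not reported here. Other genes of those lists, and the genes described for their start site or their place in a window, were named after their values were seen. No test between samples was possible with 1 group, and no set test was run. Alternatives were the promoter window, the peak list, the stronger peaks, overlap in place of summit, each replicate alone, start sites and motif window.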

Additional observations from a re-analysis of the deposited data

How the results depend on the processing

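The counts of bound proteasome genes kept within 1.5 times of their main value under all alternatives run. With 39 of 45 bound in the main setting, a rise of that size was not possible. Only a large loss of genes could have broken the limit, and several alternatives reuse the same peaks, so this is a weak check. Of 45 genes, 38 to 42 were bound, against 39 in the optimal list with 1 kb windows, and the mm9 count ran over the range 39 to 42. With each replicate alone, only the strongest entries of its relaxed list were counted, since that list holds background too. On this basis 39 genes (without replicate 1) and 40 genes (without replicate 2, which added Psmg2) were bound. The share of all protein-coding genes, 40.3% in the main setting, was 37.1% with a 500 bp window, 43.3% with 2 kb, 32.6% in the stronger 50% of peaks, 43.7% with the RefSeq promoter table's starts added and 36.9% with the mm9 list. With 1 replicate left out it was 40.8% to 41.1%, a share that depends on how many entries of the relaxed list are kept. CCGGAA lay within 25 bp of the mm9 summit at 14 genes, a narrower window by construction, against 22 within 50 bp. The shares were 33.3%, against 28.5% of all promoter peaks, at 25 bp and 52.4%, against 40.3%, at 50 bp. At 100 bp they were 54.8%, against 45.6%. The gap was thus smaller in both the narrower and the wider window than in the main one. The alternatives on the promoter table's starts, on 1 GENCODE start per gene and on protein-coding transcripts were chosen after seeing the data. No paired analysis was possible because both replicates form a single group. Signals have no known scale, and 1 library per replicate limits what their spread shows.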
